A study of Mus musculus with 58 samples.

Results

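The replication histone genes of the mouse were followed in the retina over the light/dark cycle, in control and diabetic mice. They were taken as every row of the deposited count table whose symbol starts with Hist1h, Hist2h, Hist3h or Hist4h, which gave 70 of 52459 genes. Of these, 6 encode the linker histone H1, 20 H2A, 19 H2B, 12 H3 and 13 H4, and 3 are annotated as pseudogenes (Hist1h2aj, Hist1h2al and Hist3h2bb-ps). By position, 56 lie on chromosome 13, 10 on chromosome 3, 3 on chromosome 11 and 1 on chromosome 6.

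The diabetic mice were male and heterozygous for Ins2Akita, a mutation of the insulin 2 gene that causes misfolded insulin and loss of beta cells, and had blood glucose above 250 mg/dL. Controls were male littermates without the phenotype, labelled C57/BL/6. All were 4 months old, were kept under 12 h of light and 12 h of dark, and were perfused with cold saline before the retinas were dissected, under dim red light at night. Samples were taken at 6 zeitgeber times (ZT, counted in hours from lights on), with lights off at ZT12. The 30 control libraries fell to ZT1, ZT5, ZT9, ZT13, ZT17 and ZT21 as 5, 6, 5, 5, 5 and 4, and the 28 diabetic ones as 5, 5, 5, 4, 4 and 5. The model has limits: each mouse was sampled at a single time, only males at an early stage of the disease were used, and the whole retina was read as 1 tissue, so that a lower level in fewer cells of a type and a lower level of RNA per cell cannot be told apart.

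Nucleosomes are built from pairs of H2A and H2B and of H3 and H4, with H1 bound to the linker DNA between them. The replication histone genes stand in clusters and are switched on together in S phase, when new DNA must be packed. Their mRNAs classically end in a short stem-loop in place of a poly(A) tail, which is bound by SLBP and is needed for processing, translation and rapid decay, although several of the genes also give polyadenylated mRNAs in cells that have stopped dividing. The RNA was depleted of ribosomal RNA and was not selected for poly(A), so both forms were read. Neurons of the adult retina do not divide.

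The letters of the histone stem-loop, arms of 6 bases around a loop of 4, were searched in the Gencode M21 transcripts on the sense strand and were found in 46 of the 70 genes, against 201 of 55341 annotated genes in all (0.363%). Of the classes, 4 of 6 H1, 11 of 20 H2A, 10 of 19 H2B, 9 of 12 H3 and 12 of 13 H4 genes held them. Only annotated transcripts were searched, and those of some genes without a match are short, with 312 bases in Hist1h4k and 393 in Hist1h2ak. A stem-loop past the annotated end would be missed, so a gene without the letters is not shown to lack it. The sequences below are shown for genes whose values are described further on, with 5 bases on each side and the 16 letters of the motif in capitals.
Hist1h2bg: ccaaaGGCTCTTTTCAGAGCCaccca
Hist1h2bb: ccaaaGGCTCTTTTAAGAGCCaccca
Hist1h1c: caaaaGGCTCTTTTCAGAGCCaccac
Hist1h4c: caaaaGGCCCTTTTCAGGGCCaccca
Hist1h4i: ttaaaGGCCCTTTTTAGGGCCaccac
Hist1h4b: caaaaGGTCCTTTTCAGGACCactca
The stems differed by class. All 12 H4 genes with a match had a stem of the GGCC or GGTC kind, and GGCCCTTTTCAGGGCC alone was in 7 of them. H1, H2A, H2B and H3 genes shared the GGCT kind, and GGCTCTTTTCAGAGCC was in 3 H1, 10 H2A, 8 H2B and 5 H3 genes. The annotated transcripts of some genes ran on well past the stem-loop, by 840 bases in Hist1h1c and 4884 bases in Hist1h1d, while Hist1h2bb ended 23 bases after it.

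Most H2A and H2B genes stood head to head. There were 14 such pairs, with 172 to 305 bases between the annotated starts. The stretches between 2 of the pairs are printed here because both partners of each were lower in diabetic retinas, as described further on. They are from RefSeq on GRCm38.p6, plus strand, and capitals mark the box TATAAA, the box CCAAT or the octamer ATTTGCAT, read on either strand.
Between Hist1h2ae (minus strand) and Hist1h2bg (plus strand), chr13:23571221-23571395: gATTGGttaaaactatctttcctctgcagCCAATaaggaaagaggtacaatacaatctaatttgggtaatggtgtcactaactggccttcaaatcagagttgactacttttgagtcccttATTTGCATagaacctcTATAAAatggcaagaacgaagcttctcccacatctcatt
Between Hist1h2ak (minus strand) and Hist1h2bn (plus strand), chr13:21753828-21754122: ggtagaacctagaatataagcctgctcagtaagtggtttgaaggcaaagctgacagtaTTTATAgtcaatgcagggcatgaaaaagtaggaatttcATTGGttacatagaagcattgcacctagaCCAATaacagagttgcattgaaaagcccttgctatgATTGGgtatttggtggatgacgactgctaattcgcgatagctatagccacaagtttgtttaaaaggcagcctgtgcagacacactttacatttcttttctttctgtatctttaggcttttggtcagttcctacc
The first stretch held 1 TATAAA, 2 CCAAT and 1 ATTTGCAT, and the second held 1 TATAAA and 3 CCAAT. RefSeq promoter windows of 300 bases were matched for 61 of the 70 genes (62 windows). CCAAT, the letters read by the factor NF-Y, was in 85.5% of these windows against 37.4% of all 32851, and TATAAA in 56.5% against 13.6%. By class, CCAAT was in all 50 windows of H1, H2A, H2B and H3 genes but in 3 of 12 windows of H4 genes. The octamer ATTTGCAT, the letters read by Oct factors, was in 22.6% of windows against 1.74%, all of them of H2A (7 of 17) or H2B genes (7 of 17), where partners of a pair share bases. A match is a description of these letters and does not show that a factor is bound.

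Depth ranged from 7773117 to 19929725 counted reads in control libraries (median 15260957) and from 8588878 to 22147398 in diabetic ones (median 15471730). Values are given as normalized counts, the deposited count divided by a size factor of the library, unless named otherwise. A gene was tested if its median over the 58 libraries was above 4 normalized counts, as the study required, which left 19120 genes. Of the replication histone genes, 53 were tested (6 H1, 11 H2A, 15 H2B, 8 H3 and 13 H4). Of the other 17, 4 had no read in any library (Hist1h2ap, Hist1h2ba, Hist2h2aa1 and Hist2h3c1), and the highest median was 3.80. The lowest median among the tested genes was 4.65, that of Hist1h1t, the H1 of the testis. Because the genes are near copies of each other and the strand setting of the counting is not given in the sources used here, reads of 1 gene may be missing or may be counted for a neighbour. By a count of 50-base words, 30 of the tested genes had at least 50% of words found in no other gene and 23 had less. Of the 4 genes with no read, Hist2h2aa1 and Hist2h3c1 had 0.0% of such words, Hist1h2ap 6.9% and Hist1h2ba 61.8%. A count of 0 therefore does not show that a gene is silent.

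The tissue label was checked on marker genes. The 4 rod genes summed to between 441467 and 699227 normalized counts in every library, while none of the 5 blood or 4 cornea genes was tested, at sums of at most 183.6 and 508.8. Lens RNA stood apart in 3 control libraries (ZT1 replicate 6, ZT17 replicate 5 and ZT21 replicate 2), where the lens crystallin Cryaa had 15239 to 22769 counts against at most 440 in the others. Over all time points, 2 of 4 cone genes (Gnat2 and Pde6h) and 1 of 4 microglia genes (Cx3cr1) were lower in diabetic retinas, and 1 of 3 amacrine cell genes (Chat) was higher. The edgeR test used, described below, called 1.42% of all genes lower and 1.58% higher. Of the lens genes, Cryaa was lower in diabetic retinas. No gene of the rod, Muller glia, endothelium, ganglion cell, bipolar cell or RPE lists passed. Over the day, 2 of the 5 RPE genes were rhythmic in control (Rpe65 and Ttr) and 4 in diabetic retinas (also Rlbp1 and Tyr), and Best1 in neither, by the JTK rule described below. Ttr peaked at ZT16.6 in both genotypes with relative amplitudes (those of a fitted 24 h cosine) of 42.2% in control and 66.2% in diabetic retinas, and Rpe65 at ZT14.8 and ZT16.3 with 41.8% and 56.9%. The part of RPE in the daily histone values below was not tested.

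Per length of exon, the H4 genes stood highest (the plot of levels by gene). Levels here are mean CPM (counts scaled to 1000000 counted reads of the library) per kb of exon, and error from the length used is not included. Hist1h4c had 324, Hist1h4h 177, Hist1h4d 152 and Hist1h4k 94.4, followed by the linker histone gene Hist1h1c at 79.2. The leading H2B genes were Hist1h2bc at 46.4 and Hist1h2bb at 42.3. Then came Hist1h4f (41.2), Hist3h2ba (39.3), Hist1h1e (38.4), Hist1h4a (37.9) and Hist1h4b (34.7). Of all counts on the 70 genes, 55.0% fell on H4, 18.3% on H1, 13.8% on H2B, 7.39% on H2A and 5.57% on H3.

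**Figure D1:**
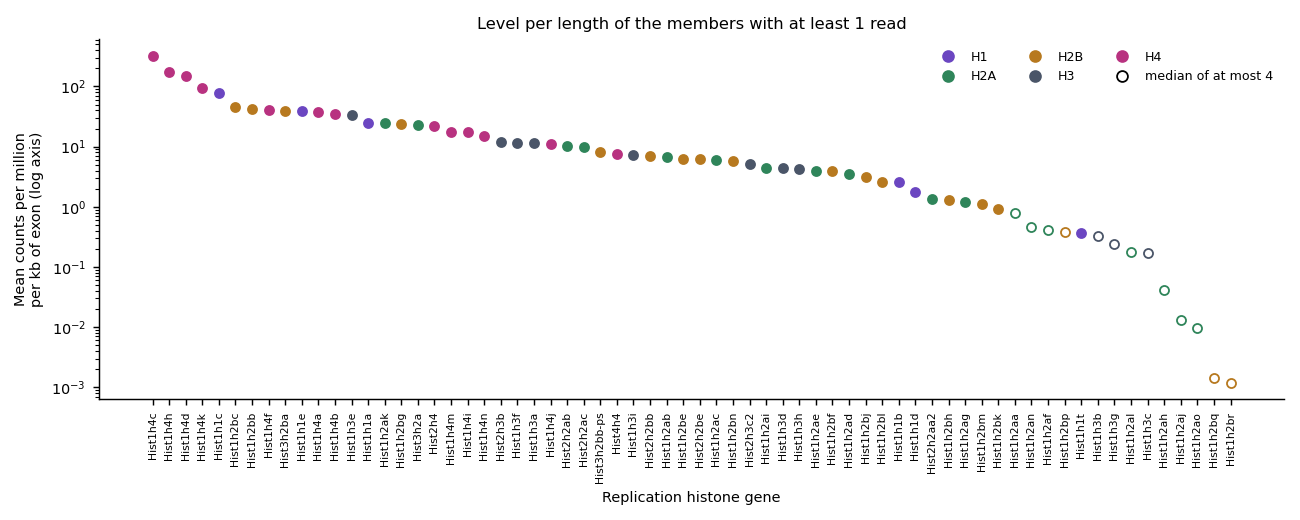
Mean level over the 58 libraries, in CPM per kb of exon on a log axis, of each replication histone gene with at least 1 read, coloured by histone class. Filled points are genes that were tested and open points are genes with a median of at most 4 normalized counts. The 4 highest genes encode H4, from 324 for Hist1h4c to 94.4 for Hist1h4k.

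The first comparison asked whether the genes differed between diabetic and control retinas over all times of day. They were lower in diabetic retinas: 16 of the 53 tested genes passed an adjusted p of 0.05 (edgeR quasi-likelihood test, adjusted over all 19120 genes) and all 16 were lower, where 1.42% of all genes tested were lower and 1.58% higher. At an unadjusted p under 0.05, 29 were lower (background 7.56%) and 0 were higher (8.0%) by edgeR, which also called 0 higher after adjustment. DESeq2 called the same number, 16, where it called 3.49% of all genes. The log2 fold change was below 0 in 51 of 53 genes, against 49.5% of all genes, with a median of -0.23 against 0.00. The called genes were 8 of 15 H2B, 5 of 11 H2A, 1 of 6 H1, 2 of 13 H4 and 0 of 8 H3 genes (the plot of fold changes by gene). Leaving out the libraries of 1 time point moved the count to 7 without ZT9, 9 without ZT17 and 10 without ZT1, and without the 3 libraries rich in lens RNA it was 12. Of the 16 genes, 6 passed in all 14 alternative fits (Hist1h2ab, Hist1h2bb, Hist1h2bc, Hist1h2be, Hist1h2bg and Hist2h2be). The other 10 lost their call in 1 fit (Hist1h2ae, Hist1h2ak and Hist1h2bj), 2 (Hist1h2bf), 3 (Hist1h2bn), 4 (Hist1h1d and Hist1h4i), 7 (Hist1h2ai and Hist1h4b) or 8 fits (Hist1h2ac), mostly those without the libraries of a time point. Replicates were retinas of separate mice, and which mice shared a litter or a day is not given in the sources used here. The gap between genotypes was wider in higher replicate numbers. In numbers 1 to 3, CPM summed over the replication histone genes was 935.9 to 1632 in control and 913.7 to 1491 in diabetic libraries. In numbers 4 to 6 it was 1264 to 1695 and 841.7 to 1443, with diabetic ZT13 replicate 5 apart at 2211. H2B sums were 152.2 to 231.5 and 142 to 195.2 in numbers 1 to 3. In numbers 4 to 6 they were 169.7 to 210.9 and 133.4 to 170.5. The dependence on number was not tested.

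**Figure D2:**
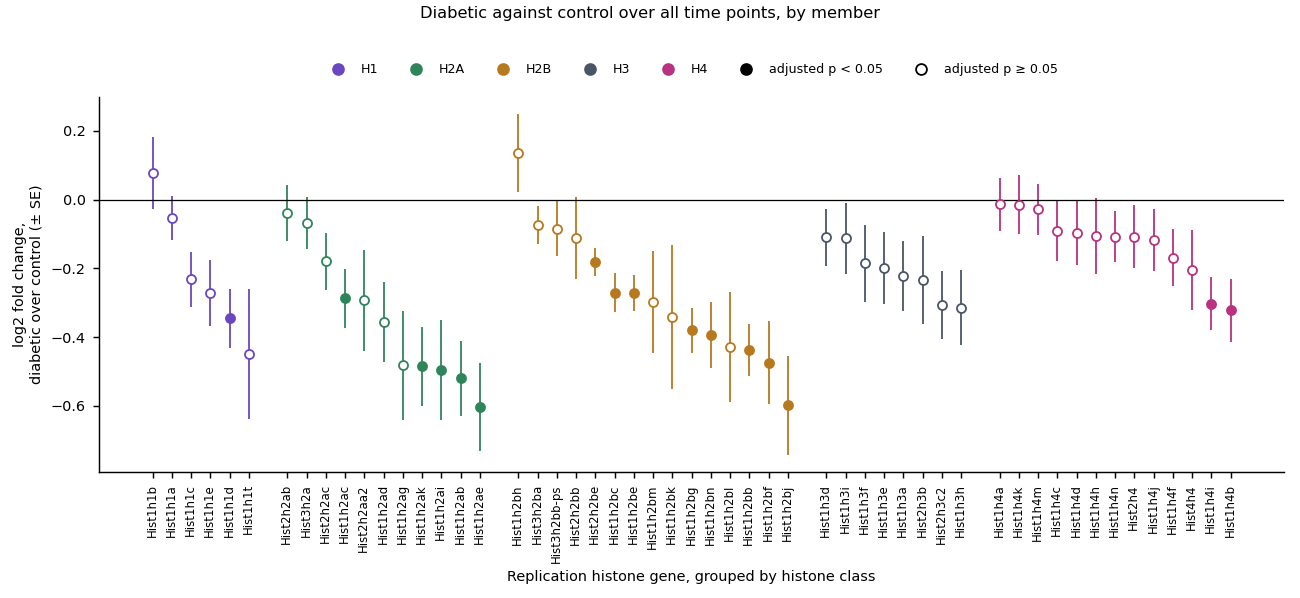
Log2 fold change of diabetic over control retinas over all time points for the 53 tested replication histone genes, with bars of ± 1 SE from the edgeR fit, grouped by histone class. Filled points passed an adjusted p of 0.05 over all genes tested: 8 H2B, 5 H2A, 2 H4 and 1 H1 gene, all below 0.

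H2B genes gave the smallest p-values. H2B forms the dimer with H2A on the outer faces of the nucleosome. In control libraries Hist1h2bg (chr13:23571396-23572013, plus strand, GRCm38) ranged from 170.4 through a median of 242 to 338 normalized counts, and in diabetic ones from 111 through 189 to 269.8. The ranges overlapped, with means of 242 ± 39.6 (SD, n = 30) and 186 ± 34.8 (SD, n = 28), and the log2 fold change was -0.38 (SE 0.06, edgeR adjusted p = 0.000146). Hist1h2bb (chr13:23746734-23747241) went from 255 through 338 to 556 in control and from 171 through 257 to 368 in diabetic libraries. Its log2 fold change was -0.44 (SE 0.08, edgeR adjusted p = 0.000213). At ZT9 every control library of Hist1h2bb was above every diabetic one, with 284, 337, 344, 527 and 404 in control replicates 1 to 5 and 258, 185, 206, 249 and 257 in diabetic replicates 1 to 5.

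Hist1h2be had 330.0, 433 and 561 as lowest, median and highest control values and 240.3, 357 and 456 as diabetic ones (log2 fold change -0.27, edgeR adjusted p = 0.00124). Its annotated model, which spans chr13:23583670-23621124, overlaps that of Hist1h1e on the same strand, so reads of the 2 genes are not fully separate. Hist1h2bc, the H2B gene with the highest level per length, ranged from 581 through 813 to 1239 in control and from 552 through 693 to 936 in diabetic libraries (log2 fold change -0.27, edgeR adjusted p = 0.00297). Hist2h2be on chromosome 3 is the H2B gene whose 50-base words were all its own (100%), and it went from 246 ± 23.2 to 217 ± 23.8 (SD, log2 fold change -0.18, edgeR adjusted p = 0.00413). Of the lower-count H2B genes, Hist1h2bj changed by -0.60 (adjusted p = 0.00976), Hist1h2bf by -0.47 (0.0175) and Hist1h2bn by -0.39 (0.0125), all log2 fold changes with edgeR. Hist1h2bh lay apart from its class at 0.14 (adjusted p = 0.637), with 30.1 ± 8.59 counts in control and 32.9 ± 10.7 in diabetic libraries.

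Of the H2A genes, the largest difference was in Hist1h2ae, the head-to-head partner of Hist1h2bg. Its lowest, median and highest counts were 18.7, 48.7 and 74.8 in control and 15.4, 27.6 and 53.2 in diabetic libraries, with a log2 fold change of -0.60 (SE 0.13, edgeR adjusted p = 0.00332). Hist1h2ab changed by -0.52 on the log2 scale (edgeR adjusted p = 0.00292), from 54.1 ± 15.4 to 38.2 ± 11.48 (SD). Hist1h2ak, the partner of Hist1h2bn, changed by -0.49 (edgeR adjusted p = 0.00867), from 162 ± 48.0 to 116 ± 42.9 (SD). Hist1h2ai (-0.50, adjusted p = 0.0406) and Hist1h2ac (-0.29, adjusted p = 0.0451) were close to the threshold, and lost their call in 25 and 35 of the 58 edgeR fits that left out 1 library. Hist1h2ac also lost it with the replicate number as a block (adjusted p = 0.0525). The fold changes of the H2A genes that did not pass ran from -0.48 in Hist1h2ag to -0.04 in Hist2h2ab.

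The pairs can be read together. In 8 of the 14 head-to-head pairs both genes were tested: both were called in 3 (Hist1h2ae with Hist1h2bg, Hist1h2ak with Hist1h2bn, and Hist1h2ac with Hist1h2bc, of which Hist1h2ac was not called with the block), 1 partner was called in 4, and neither in 1, Hist3h2a with Hist3h2bb-ps on chromosome 11 (-0.07 and -0.09 on the log2 scale). The log2 fold changes within the pair of Hist1h2ac and Hist1h2bc were -0.29 and -0.27. In the pair of Hist2h2ac and Hist2h2be both were -0.18, with adjusted p-values of 0.274 and 0.00413 by edgeR.

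Among the H1 genes, Hist1h1d was called, though not without the libraries of ZT1, ZT5, ZT9 or ZT17 (adjusted p = 0.0517 to 0.0916). It ranged from 155 through 206 to 270.1 in control and from 98.4 through 156 to 261 in diabetic libraries (log2 fold change -0.35, SE 0.09, edgeR adjusted p = 0.0143). Hist1h1c, which is the H1 gene with the highest level, had a control mean of 1923 ± 348 (SD, n = 30) and a diabetic mean of 1638 ± 411 (SD, n = 28). Its diabetic mean was lower at all 6 time points, but its log2 fold change of -0.23 did not pass (edgeR adjusted p = 0.109). With time point as an additive term it was -0.24 and passed (edgeR adjusted p = 0.0224). Hist1h1e lay at -0.27 (adjusted p = 0.118), and Hist1h1b lay at 0.08 (adjusted p = 0.818).

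The H4 genes encode 1 protein between them. The genes with the highest levels gave -0.09 for Hist1h4c (edgeR adjusted p = 0.708), -0.11 for Hist1h4h, -0.10 for Hist1h4d and -0.01 for Hist1h4k on the log2 scale. Without diabetic ZT13 replicate 5, a library described further on, these log2 fold changes were -0.19, -0.23, -0.15 and -0.11. Hist1h4i fell from 200.5 ± 39.8 to 163 ± 38.3 (SD, log2 fold change -0.30, edgeR adjusted p = 0.0190) and Hist1h4b from 221 ± 45.7 to 178 ± 57.0 (-0.32, adjusted p = 0.0364). Hist1h4i lost its call without ZT1, ZT9 or ZT17 and without the libraries rich in lens RNA (adjusted p = 0.0528 to 0.114). Hist1h4b lost it without each time point but ZT13, without those libraries and without a filter on low counts (adjusted p = 0.0602 to 0.178), and in 7 of the 58 fits with a library left out. The 8 H3 genes, whose protein pairs with H4 in the core of the nucleosome, had log2 fold changes from -0.31 (Hist1h3h) to -0.11 (Hist1h3d), and 0 passed. Over all classes, the diabetic mean was lower at all 6 time points in 14 of the 53 genes (5.98% of all genes tested), and 10 of them were called (1.11% of all genes).

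Summed over the genes of a class, the mean level was lower in diabetic retinas in all 5 classes (the plot of class sums by time). The sums are in CPM and are a description with no test. H2B went from 188 ± 19.9 (SD, n = 30) in control to 158 ± 16.1 (SD, n = 28) in diabetic retinas, a difference of -16.0%. The difference was -14.7% for H1 (249 ± 39.9 to 212 ± 50.8), -12.5% for H3 (74.4 ± 14.4 to 65.1 ± 19.5), -12.4% for H2A (100.2 ± 12.1 to 87.8 ± 11.45) and -6.76% for H4 (717 ± 114 to 669 ± 204). Without Hist3h2a, the H2A gene with the highest mean count, the log2 ratio of the H2A sums was -0.33 in place of -0.19. For H2B the ranges of the genotypes were apart at 3 of the time points. At ZT1 the 5 control sums ran from 195 to 209.5 and the 5 diabetic sums from 159 to 178. At ZT9 they ran from 177.7 to 211 and from 133 to 162, and at ZT17 from 207 to 232 and from 137 to 195. At ZT5, ZT13 and ZT21 the ranges overlapped. Those of the other 4 classes overlapped at every time, except for H2A at ZT9 (97.4 to 121 in control and 68.9 to 89.6 in diabetic libraries).

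**Figure D3:**
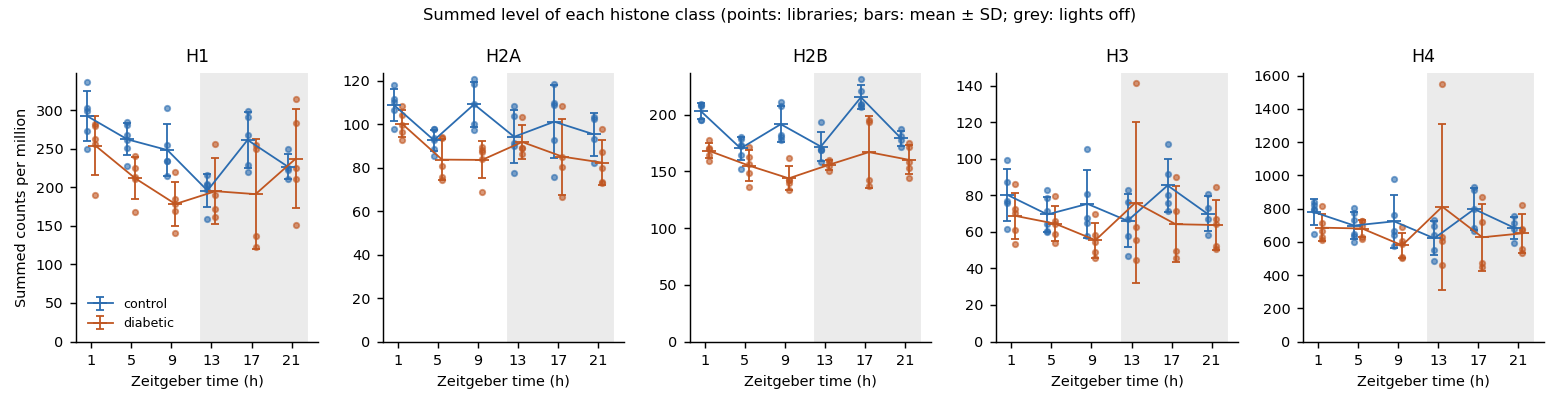
CPM summed over the genes of each histone class, by zeitgeber time, with 1 point per library and bars of mean ± SD for control (blue) and diabetic (orange) retinas. The grey area marks lights off. H2B sums of the genotypes do not overlap at ZT1, ZT9 and ZT17, and 1 diabetic library at ZT13 stands at 1552 for H4.

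That library, diabetic ZT13 replicate 5, stood apart from the rest of its group. Its H4 sum was 1552 against 458 to 630.2 in the other diabetic libraries of ZT13, and its H3 sum was 141. Its 10177 counts of Hist1h4c compare with 2650 to 3593 in the others. It also had the highest level of Rn7sk, the non-coding RNA that holds back the elongation factor P-TEFb, with 696907 counts against at most 415280 elsewhere. The same held for 2 other short structural RNAs, Rmrp (85149 against at most 57689) and Rpph1 (193660 against at most 114965), with control ZT17 replicate 3 second in all 3 RNAs. Without it, the diabetic H4 sum was 636 ± 109 (SD, n = 27) and the log2 ratio to control went from -0.10 to -0.17. The count of called genes over all time points was then 19 in place of 16, 51 of 53 log2 fold changes stayed below 0, and the median was -0.28.

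Rn7sk was chosen after its values were seen, as were Hist1h3e and Hist3h2a among the genes set against it. Its own level did not pass between genotypes, with 237849 ± 72890 in control and 240282 ± 104415 in diabetic libraries (SD, log2 fold change 0.01, edgeR adjusted p = 0.979). The relations on the log2 scale over the 58 libraries are therefore a description with no test, and the level of Rn7sk also ran with the replicate number, with medians of 188010 to 198111 for numbers 1 to 3 and 239796 to 267452 for numbers 4 to 6. Hist1h3e gave r = 0.79 and rho = 0.70. Within genotypes r was 0.82 in both (rho = 0.87 in control and 0.59 in diabetic libraries), and it was 0.70 without the 2 libraries farthest from the median of Rn7sk. Hist1h4c gave r = 0.61 and rho = 0.53, with r = 0.70 in control (rho = 0.72) and 0.61 in diabetic libraries (rho = 0.32), and 0.43 without the 2 libraries. Hist3h2a ran the other way at r = -0.62 and rho = -0.55, with r = -0.62 in control (rho = -0.53), -0.63 in diabetic libraries (rho = -0.68) and -0.63 without the 2 libraries. Hist1h2bc gave r = 0.37 and rho = 0.45, with 0.46 without the 2 libraries, 0.62 in control (rho = 0.67) and 0.16 in diabetic libraries (rho = 0.18). Hist1h1c showed r = 0.08 and rho = 0.11, and r = 0.06 without the 2 libraries. With Rn7sk as a covariate, 22 of the 53 genes were lower in diabetic retinas over all time points (edgeR adjusted p), where 2.08% of all genes were.

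**Figure D4:**
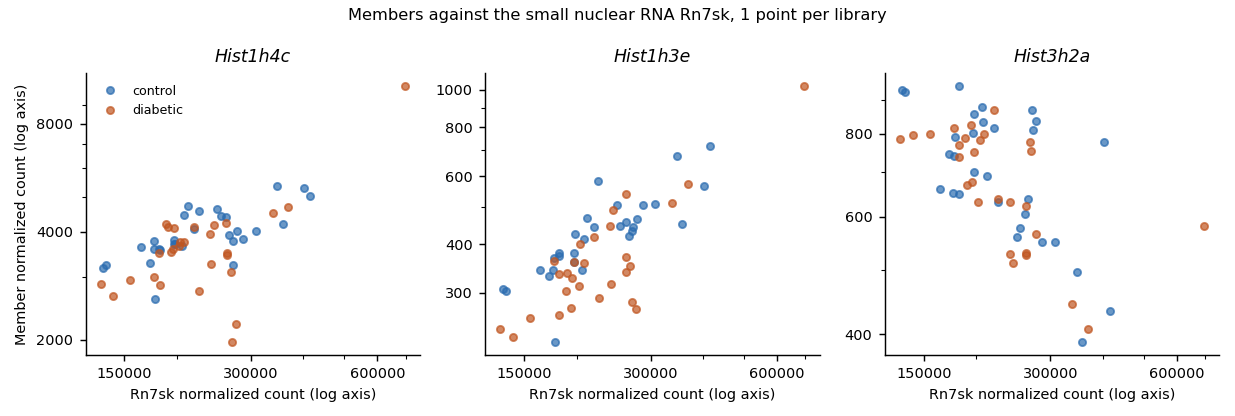
Normalized counts of Hist1h4c, Hist1h3e and Hist3h2a (vertical log axes) against those of Rn7sk (horizontal log axis), with 1 point per library, control in blue and diabetic in orange. Hist1h4c and Hist1h3e rise with Rn7sk and Hist3h2a falls, and the point at 696907 is diabetic ZT13 replicate 5.

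At single time points, 0 of the 53 genes passed an adjusted p of 0.05 by edgeR at any of the 6 times, where 0.0105%, 0.0209%, 0.00523%, 0.00%, 0.173% and 0.00% of all genes passed at ZT1, ZT5, ZT9, ZT13, ZT17 and ZT21. DESeq2 called 0 at the other times and 1 at ZT17 (background 0.471%), Hist1h2bb. At an unadjusted p under 0.05 by edgeR, the lower genes numbered 12 at ZT1 (background 2.60%), 22 at ZT9 (2.33%) and 14 at ZT17 (4.41%), against 6 at ZT5 (3.57%), 1 at ZT13 (1.71%) and 4 at ZT21 (2.08%). The log2 fold change was below 0 in 50, 48, 53, 21, 49 and 40 of the 53 genes at these times, and in 48.8%, 50.1%, 50%, 51.0%, 47.6% and 50.3% of all genes. By sign alone, the log2 fold change of every tested gene was below 0 at ZT9, and ZT13 was the only time at which that of most was not. The genes higher at ZT13 at an unadjusted p under 0.05 were 3 (background 2.75%), Hist1h4c, Hist1h4h and Hist1h4k. Without replicate 5, in the fit on the other 57 libraries, 48 of 53 genes were below 0 at ZT13, 3 were lower and 0 higher at an unadjusted p under 0.05, and the log2 fold changes of these H4 genes went from 0.52, 0.61 and 0.48 to -0.13, -0.24 and -0.21. At ZT17 the adjusted count was 3 without diabetic ZT17 replicate 3 and 1 without any 1 of diabetic ZT17 replicate 1, diabetic ZT21 replicate 3, diabetic ZT13 replicate 5 and control ZT9 or ZT17 replicate 4, and at ZT9 it was 1 without diabetic ZT9 replicate 1.

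The diabetic libraries of ZT17 spread widely. Replicates 1 and 3 had 270 and 263 counts of Hist1h2bg and replicates 4 and 5 had 148 and 111, against 206 to 338 in control. For Hist1h1c they had 2076, 1806, 903 and 895, against 1648 to 2208 in control. Hist1h2bb gave 356, 368, 206 and 171, with 357 to 556 in control. The same libraries had 54.8, 41.5, 42.6 and 46.03 counts of Hist1h2bh, with no such gap.

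**Figure D5:**
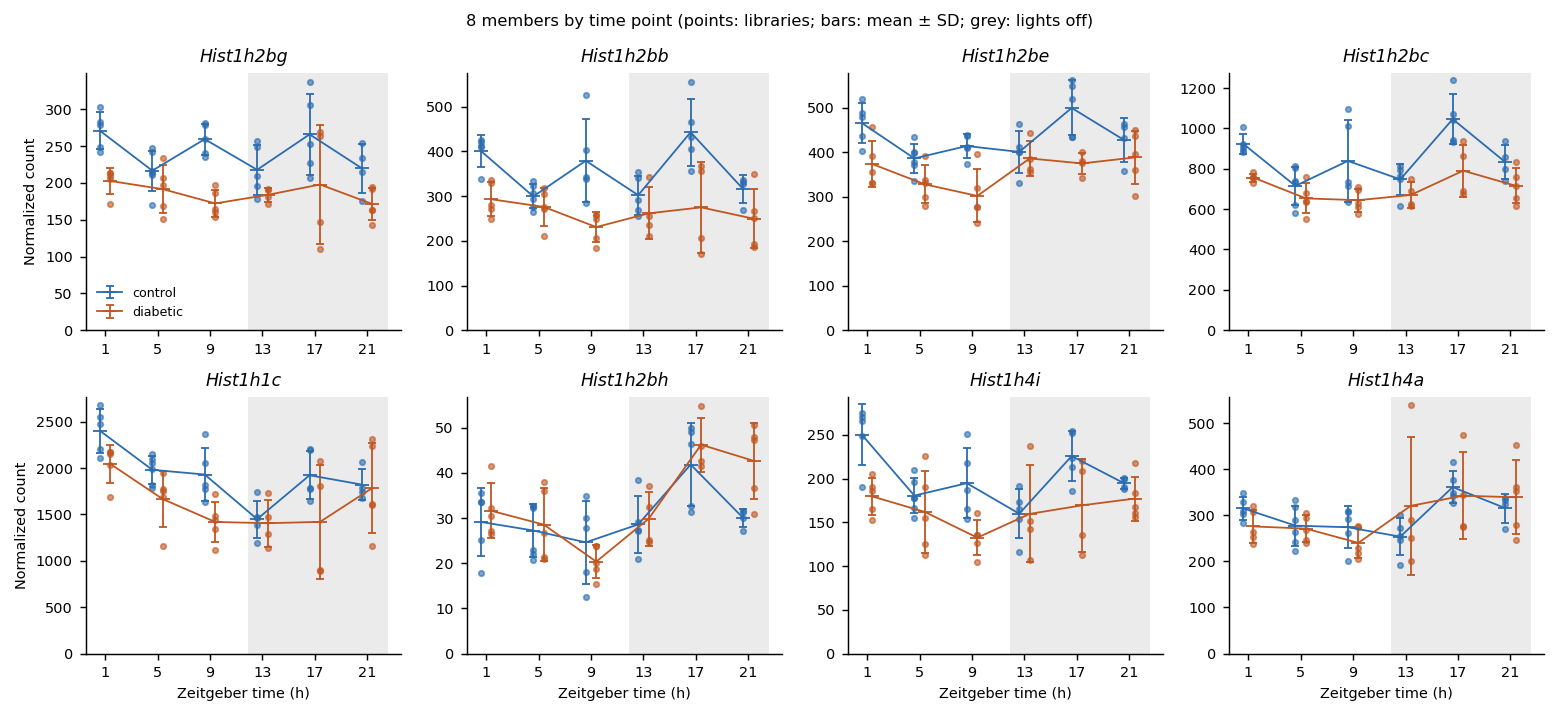
Normalized counts of 8 replication histone genes by zeitgeber time, with 1 point per library and bars of mean ± SD for control (blue) and diabetic (orange) retinas, and lights off in grey. Hist1h2bg, Hist1h2bb, Hist1h2be, Hist1h2bc, Hist1h1c and Hist1h4i have lower diabetic means at all 6 time points, and Hist1h2bh reaches its highest means at ZT17 in both genotypes.

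The next comparison asked which genes followed a daily rhythm. A gene was called rhythmic with an empirical JTK_CYCLE p under 0.05, unadjusted, and a ratio of highest to lowest library above a fold threshold. The study applied its fold threshold to a fold predicted by its software, which was not computed here. The ratio of single libraries is a weak condition, which 97.7% of all genes met in control and 98.5% in diabetic retinas. The p-value comes from shuffled series, and is called a permutation p here. In control retinas 10 of the 53 genes were rhythmic, where 21.8% of all genes tested were, and in diabetic retinas 7, where 23.9% were. These were 18.9% and 13.2% of the 53 genes. With the threshold on the ratio of time point means, 10 were rhythmic in control (18.9%, against 13.2% of all genes) and 6 in diabetic retinas (11.3%, against 14.2%), so that the control share lay below the background by the first ratio and above it by the second. Hist1h1c, Hist1h1d, Hist1h2bc and Hist1h4a were rhythmic in both, Hist1h1t, Hist1h2ae, Hist1h4h, Hist1h4i, Hist2h4 and Hist3h2ba in control, and Hist1h2be, Hist1h2bh and Hist2h3c2 in diabetic retinas. In diabetic retinas the call was lost without 1 library in 8 of 28 fits for Hist1h1c, 3 for Hist1h1d, 9 for Hist1h2bc, 12 for Hist1h4a, 9 for Hist1h2be and 0 for Hist1h2bh and Hist2h3c2, and that of Hist1h2bc also with the ratio of time point means and in the cosine models of edgeR. In control retinas it was lost in 18 of 30 fits for Hist1h1t, 13 for Hist1h2ae, 12 for Hist2h4, 3 for Hist3h2ba and 0 for the other 6 genes. With the edgeR cosine model the control call was also lost for Hist1h1d, Hist1h1t, Hist1h2ae, Hist1h4h and Hist2h4, and with Rn7sk in that model for Hist3h2ba. Without the libraries rich in lens RNA it was lost for Hist1h2ae, Hist2h4 and Hist3h2ba. After adjustment 2 passed in each genotype: Hist1h1c and Hist1h4a in control, Hist1h2bh and Hist2h3c2 in diabetic retinas. The share of all genes that passed after adjustment was not counted, so these counts cannot be set against a background. The diabetic count was 3 without diabetic ZT9 replicate 2, 4 without diabetic ZT1 replicate 1 and 11 without diabetic ZT17 replicate 4.

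The acrophase, the time of the peak of a fitted 24 h cosine, lay between ZT12 and ZT24 for 7 of the 10 control and 5 of the 7 diabetic genes, where 49.2% and 51.8% of all rhythmic genes had theirs at night. The difference was not tested. Hist1h1c peaked at dawn, at 1.34 h in control and 0.53 h in diabetic retinas. Its means at ZT1, ZT5, ZT9, ZT13, ZT17 and ZT21 were 2402, 1981, 1930, 1449, 1922 and 1821 in control and 2044, 1665, 1419, 1405, 1420 and 1786 in diabetic retinas, so both were highest at ZT1 and lowest at ZT13. Its relative amplitude, the cosine amplitude as a share of the mean, was 16.4% and 19.8% (JTK permutation p = 0.0026 and 0.039). Hist1h4a peaked at ZT20.4 in control with a relative amplitude of 13.4% (JTK permutation p = 0.0012) and at ZT18.3 in diabetic retinas with 16.9% (permutation p = 0.039). Hist2h3c2, an H3 gene, peaked at 0.26 h in diabetic retinas with 20.3% (JTK permutation p = 0.0038), and its control fit gave p = 0.50.

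Hist1h2bh gave the smallest JTK p of the 53 genes. In diabetic retinas its 5 libraries of ZT9 had 23.9, 23.7, 20.1, 18.6 and 15.4 counts and its 4 libraries of ZT17 had 54.8, 41.5, 42.6 and 46.03, with no overlap. At ZT21 the 5 values were 50.5, 47.3, 30.9, 48.0 and 36.6. The relative amplitude was 34.4% with a peak at ZT19.5 (JTK permutation p = 1.6e-05, adjusted p = 0.0013). In control retinas the libraries of ZT9 had 29.95, 27.9, 18.0, 12.4 and 34.8 counts and those of ZT17 had 32.6, 46.4, 31.3, 49.9 and 49.0, and the ranges overlapped. The amplitude there was 19.8% with a peak at ZT18.3 (JTK permutation p = 0.103). The difference in rhythm between the genotypes did not pass for this gene (unadjusted p = 0.150), and 81.2% of its 50-base words were its own.

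Differences among the 6 time points of any shape were tested with edgeR in 1 fit of 12 groups. In control retinas 5 of the 53 genes passed an adjusted p of 0.05, where 9.10% of all genes did: Hist1h2bc (adjusted p = 0.00129), Hist1h2bb (0.0271), Hist1h1c (0.0361), Hist1h2bj (0.0415) and Hist1h4i (0.0482). Hist1h2bc means were 925, 715, 839, 747, 1046 and 833 from ZT1 to ZT21 in control and 756, 653, 644, 670.0, 790.4 and 716 in diabetic retinas, highest at ZT17 in both. In diabetic retinas 1 passed, Hist1h2bh (adjusted p = 0.000682), where 10.1% of all genes did. Without 1 library the control call was lost in 39 of 58 fits for Hist1h4i, 13 for Hist1h2bj, 7 for Hist1h1c, 2 for Hist1h2bb and 0 for Hist1h2bc. The counts were 10 in control and 3 in diabetic retinas by DESeq2 (11.3% and 12.5% of all genes), 9 and 4 with the replicate number as a block (12.8% and 12.6%), and 2 and 2 with Rn7sk as a covariate (7.52% and 12.2%). The control count was 1, Hist1h2bc, without the 3 libraries rich in lens RNA. It was 2 without 1 library of control ZT1 (replicate 2 or 6), ZT13 (2, 3 or 4) or ZT17 (3), 3 without control ZT1 replicate 1, ZT5 replicate 1, 3 or 6, ZT17 replicate 2 or 5 or ZT21 replicate 4, and 8 without diabetic ZT17 replicate 3. The diabetic count was 4 without diabetic ZT9 replicate 1, ZT13 replicate 3 or 5 or ZT21 replicate 5, 3 without diabetic ZT1 replicate 2 or ZT17 replicate 1 or 3, and 2 without diabetic ZT5 replicate 1 or 5, ZT13 replicate 4, ZT17 replicate 4 or 5 or control ZT9 replicate 4.

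Whether the rhythm differed between genotypes was tested with the genotype by 24 h cosine and sine terms in edgeR. None of the 53 genes passed after adjustment, with 0 of 19120 genes passing (0.00%), and 0 of the 53 had an unadjusted p under 0.05, against 3.36% of all genes. DESeq2 also gave 0 and 0. The smallest unadjusted p-values were those of Hist2h2ab (0.137), Hist1h2bh (0.150) and Hist1h2bj (0.188). A gene that was rhythmic in 1 genotype is therefore not shown to differ between them.

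The called genes were also counted by the stem-loop letters and by uniqueness. Of the 21 tested genes whose transcript ran more than 150 bases past the stem-loop 6 were called lower (1.42% of all genes were), and of the 17 with at most 150 bases 5. Of the 15 without the letters in the annotated transcript, which may stop short of them, 5 were. By unique words, 9 of the 30 genes with at least 50% and 7 of the 23 with less were called. Of the genes rhythmic in control, all 10 had at least 50% unique words, and of the 7 in diabetic retinas 6 had, the other being Hist2h3c2. Of all genes tested, 21.8% and 23.9% were rhythmic. The genes with at least 50% unique words also had the higher median level, 14.4 against 6.76 CPM per kb of exon. Uniqueness and level are therefore not told apart here.

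Of 14 genes of histone mRNA processing, all tested, 1 was higher in diabetic retinas and 0 lower over all time points by edgeR, beside the 1.58% and 1.42% of all genes: Slbp, which encodes the protein that binds the stem-loop, with 247 ± 17.5 in control and 271 ± 27.7 in diabetic libraries (SD, log2 fold change 0.13, SE 0.03, edgeR adjusted p = 0.0227). Control retinas had 2 rhythmic genes of this list and diabetic retinas 5, beside 21.8% and 23.9% of all genes. Cstf2, a subunit of the cleavage stimulation factor, was rhythmic in both (JTK permutation p = 0.003 and 0.00044), and so was Lsm11, a part of the U7 particle that directs cleavage after the stem-loop. Eri1, an exonuclease that trims the end of histone mRNA, was rhythmic in diabetic retinas with a peak at 4.11 h (JTK permutation p = 5.3e-05 against 0.37 in control). Npat, the activator of histone gene transcription, gave a log2 fold change of 0.03 (edgeR adjusted p = 0.828).

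Replacement histones are made outside S phase and are loaded without replication. Of 15 such genes 12 were tested. Over all time points 1 was lower (1.42% of all genes) and 0 were higher (1.58%) by edgeR. The lower one was H2afj, at 211 ± 25.1 and 191 ± 21.4 (SD, log2 fold change -0.15, edgeR adjusted p = 0.0493). H1f0, the linker histone of resting cells, lay at -0.01 (adjusted p = 0.956), H2afz at 0.11 (0.179) and H3f3b at -0.10 (0.337). Of the 12, control retinas had 7 rhythmic ones (21.8% of all genes) and diabetic retinas 2 (23.9%), among them H2afv in both (JTK permutation p = 0.00085 and 0.027). Of 16 histone chaperones, which escort histones to DNA, 15 were tested, 0 passed between genotypes by edgeR, and 4 and 5 were rhythmic, beside 21.8% and 23.9% of all genes. Chaf1a, a subunit of the chaperone that loads H3 and H4 behind the fork, had the smallest p of them in diabetic retinas (JTK permutation p = 1.3e-05, and 0.004 in control). Hjurp, the chaperone of the centromeric histone CENP-A, followed it there (JTK permutation p = 0.0011, and 0.22 in control).

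Of 22 genes of S phase and mitosis, 16 were tested, and Pcna and Ccna2 had mean normalized counts of 430.7 and 370.4, with reads in every library. The 6 that were not tested (Mki67, Top2a, Ccnb1, Cdk1, Rrm2 and Tk1) had means of 0.90 to 2.64. Mki67 had 0 to 7.57 counts in control and 0 to 6.35 in diabetic libraries, and Top2a 0 to 5.05 and 0 to 3.94. Of the 16 genes, 1 was lower in diabetic retinas (1.42% of all genes) and 0 were higher (1.58%) by edgeR: Mcm4, a subunit of the replicative helicase, at 209 ± 22.7 and 186 ± 27.6 (SD, log2 fold change -0.17, edgeR adjusted p = 0.0443). Control retinas had 4 rhythmic genes of this list (21.8% of all genes) and diabetic retinas 6 (23.9%). Mcm3, of the same helicase, was rhythmic in both with peaks at 8.80 h and 7.57 h and relative amplitudes of 38.2% and 37.9% (JTK permutation p = 1e-06 and 0.00013), and Mcm5 in diabetic retinas (JTK permutation p = 8.6e-05, and 0.17 in control). Whether dividing cells or the markers above had a part in the lower histone levels was not tested.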

How the data were processed

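RNA was measured in 58 retina libraries over 12 groups. The authors deposited raw read counts per gene, not normalized, made with STAR 2.7.4a on GRCm38.p5 and HTSeq 0.11.1 with Gencode M15. HTSeq's strand setting is not given in the sources used here. From these counts, size factors were computed with DESeq2 1.42.0 for rhythm, levels and plots, and TMM factors with edgeR 4.0.16 in R 4.3.3 for quasi-likelihood tests, with Benjamini-Hochberg adjustment over all 19120 genes with a median above 4 normalized counts. Empirical JTK_CYCLE was rewritten in Python 3.11.15 with a 24 h period, 6 phases in steps of 4 h and 5 widths of 4 to 20 h, against 1000000 shuffled series, or 200000 for alternatives. The genotype by cosine test stood in for the study's package for differential rhythms. Scripts were tested on simulated data. Sequences came from Gencode M21 transcripts and RefSeq tables on GRCm38.p6.

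The text names the 12 genes with the highest level per length, every gene called rhythmic or by an edgeR test, the 3 with the smallest p for genotype and for the difference in rhythm, and from each pathway list the 2 with the smallest JTK p together with 6 fixed genes. Other genes were named after their values were seen. The genes and lists were chosen with earlier results of these data known. The labels do not say what samples with the same replicate number share, and the number was not used as a block in the tests given first. Libraries of a group differed by more than sampling noise, with the lowest chi-square per degree of freedom of 113 pairs at 1.86. Alternatives were other normalizations, filters and tests, a replicate block, Rn7sk as a covariate, and libraries or time points left out.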

Additional observations from a re-analysis of the deposited data

Results flagged for a closer look

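Of 120 groups of 4 to 6 libraries (5 class sums and the genes Hist1h1c, Hist1h2bc, Hist1h3e, Hist1h4c and Hist3h2a in 12 groups), 9 held a library whose gap to the rest was large for the range of the group at the 95% level, and chance alone flags about 1 in 20. Diabetic ZT13 replicate 5 was high in the H4 sum (1552 CPM, others 458 to 630.2), in Hist1h4c (10177 normalized counts, others 2650 to 3593) and in Hist1h3e (1023, others 231.5 to 351). Control ZT1 replicate 3 was low in the H4 sum (647, others 792 to 839) and in Hist1h4c (3662, others 4450 to 4705). Diabetic ZT1 replicate 2 was low in the H1 sum (189, others 256 to 282), and diabetic ZT9 replicate 4 in the H2A sum (68.9, others 83.9 to 89.6). Diabetic ZT1 replicate 4 was low in Hist3h2a (623, others 788 to 825), and diabetic ZT5 replicate 4 was high in Hist1h3e (491, others 312.5 to 361).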

How the results depend on the processing

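Over all time points, the count of genes lower in diabetic retinas stayed within 1.5 times of 16 under other normalizations, filters and tests (13 to 22) and with 1 library left out (13 to 19), and fell to 10, 7 and 9 without ZT1, ZT9 and ZT17. Hist1h2ab, Hist1h2bb, Hist1h2bc, Hist1h2be, Hist1h2bg and Hist2h2be passed in every alternative and with each library left out. At ZT5 and ZT9, a fit on that time point alone called 1 gene each in place of 0, and at ZT17 DESeq2, the replicate block and Rn7sk as a covariate called 1 each. With a library left out the counts were 0 to 1 at ZT9, 0 to 3 at ZT17 and 0 at the other times. Rhythmic genes numbered 2 in each genotype after adjustment, and 14 in diabetic retinas by a cosine model with Rn7sk. With a library left out they numbered 7 to 13 in control and 3 to 11 in diabetic retinas. Genes that differed between time points numbered 10 by DESeq2, 9 with the block, 2 with Rn7sk and 1 without the libraries rich in lens RNA in control, and 3 by DESeq2, 3 without a filter, 4 with the block and 2 with Rn7sk in diabetic retinas. Leaving out a library gave 2 to 8 in control and 1 to 4 in diabetic retinas. The cause was not tested. Log2 ratios of the class sums ran from -0.25 to -0.21 for H1, -0.20 to -0.18 for H2A, -0.26 to -0.24 for H2B, -0.26 to -0.17 for H3 and -0.17 to -0.08 for H4 with a library left out.

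Whether the replicate numbers pair the libraries is not settled. The labels do not say what a number marks, and the deviations of 26 same-numbered pairs correlated from -0.20 to 0.55, with 15 over 0.1 and a mean of -0.03 for other numbers. In the data, 25 of 52 libraries correlated best with their own number, and the count that chance would give was not computed. The median of Rn7sk was 188010 to 198111 for numbers 1 to 3 and 239796 to 267452 for numbers 4 to 6, so a shared batch stays possible. The gap in summed histone CPM between genotypes was also wider in numbers 4 to 6, by the ranges given above. With the block 15 genes were lower over all time points, while the counts between time points rose to the 9 and 4 given above. At these depths genes near 4 normalized counts, such as Hist1h1t, have a large counting error.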
